A study of Mus musculus with 6 samples.

Results

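Myc and the nucleolar genes that make ribosomes were examined in M-MDSCs, the monocytic subset of myeloid-derived suppressor cells, which restrain T cells. The set held 36 genes named by symbol: Myc, factors that process and assemble ribosomal RNA (rRNA), and subunits of RNA polymerase I. All 36 were among the 34745 genes of the deposited count table, and all 36 were among the 12537 genes with enough counts to be tested. In total, 3 mTOR-/- and 3 WT libraries were sequenced from mouse M-MDSCs, which were induced from bone marrow with the cytokines GM-CSF and IL-6 and sorted, and the strain of both groups was C57BL/6. The mTOR-/- cells came from Lyz-mTOR mice, which carry a floxed mTOR gene (mTOR flox/flox) together with the Cre recombinase under the Lyz promoter (Lyz-Cre), so that only cells that use this promoter, mainly myeloid cells, lose mTOR. The sources used here give n = 3 for the mice of this experiment but not their age or sex, and do not tie each library to a mouse or culture of its own, so p-values here measure the spread between these libraries, which may be partly technical.

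A ribosome is built in the nucleolus. RNA polymerase I transcribes the rRNA precursor, small nucleolar ribonucleoproteins (snoRNPs) modify it, and processing factors cut it and fold it into the small and the large subunit. Myc is a transcription factor that pairs with Max at E-box sequences and is known for activating genes at each of these steps. mTOR, the kinase targeted here, is known for promoting ribosome production through the RNA polymerase I factor Rrn3 and through translation, and the comparison asked how the messenger RNA of these genes stood in cells in which the gene of that kinase was targeted. Pre-rRNA, mature rRNA and protein were not measured.

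Total counts lay between 12317507 and 14768126 per library, and the lowest count of any of the 36 genes in any library was 133. Library mTOR-/- replicate 3 stood apart: its log2 profile over the tested genes correlated with the other mTOR-/- libraries at 0.953 and 0.956, which correlated with each other at 0.974, while the WT libraries correlated with each other at 0.978 to 0.980. For the 36 genes and their role groups, counts of calls and of signs are also given without this library. Mtor itself (chromosome 4, 148448611 to 148557683) counted 883, 983 and 908 reads in mTOR-/- replicates 1, 2 and 3 and 980, 875 and 929 in the WT replicates, with a log2 fold change of 0.15 ± 0.11 (SE). These counts are for the whole gene and were not split by exon, so they do not check the deletion. The sources used here do not say which exons are deleted. The paper reports that the loss of mTOR in MDSCs was verified. Itgam, the gene of CD11b, was at 647 to 1028 CPM in mTOR-/-, where CPM are counts scaled to a common library size, and at 870 to 961 CPM in WT. Ly6c2 was at 72.6 to 104 CPM in mTOR-/- and 116 to 226 CPM in WT, and Ly6g, the marker of the granulocytic subset, at 10.7 to 15.2 CPM in mTOR-/- and 0.85 to 5.06 CPM in WT. Other markers of both lists went the other way: of 9 monocyte and M-MDSC markers 2 rose (Cd14 and Csf1r) and 1 fell (Ly6c2), and of 11 neutrophil and G-MDSC markers 2 rose (Ly6g and S100a8) and 2 fell (Ltf and Ngp). With 1 library left out in turn, the Ly6g call was kept only without WT replicate 3 (edgeR adjusted p of the others 0.0548 to 0.127). That of Ly6c2 was kept only without mTOR-/- replicate 3 or WT replicate 2 (edgeR adjusted p of the others 0.0821 to 0.159). The monocyte list summed to 1888 to 2222 CPM in mTOR-/- and 2021 to 2258 CPM in WT, and the neutrophil list to 2391 to 2718 CPM and 2127 to 2458 CPM, so that both overlapped. These sums weigh the highest genes most, and opposite changes of single markers do not show in them. In the neutrophil sum Mmp8 alone was at 1395 to 1798 CPM in mTOR-/- and 1078 to 1321 CPM in WT. The 6 mast cell and basophil markers summed to 239 to 295 CPM in mTOR-/- and 876 to 1056 CPM in WT, the 4 progenitor markers, which share Kit with the mast cells, to 308 to 336 CPM and 506 to 597 CPM, and the 6 dendritic cell markers to 193 to 263 CPM and 66.9 to 152 CPM. The lower progenitor sum in mTOR-/- came from Kit and Gata2, which fell in edgeR's test (log2 fold changes -1.05 and -0.79). Cd34 did not fall, with a log2 fold change of 0.11 ± 0.15 (SE), and Flt3 was at most at 3.49 CPM. The progenitor sum therefore does not show a fall of all its markers. The 4 T cell markers summed to at most 0.570 CPM, with Cd3e at 0 in every library. The part of this cell makeup in the values below was not tested, and in bulk samples fewer cells of a type and less RNA per cell cannot be told apart.

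None of the 36 genes passed the test between mTOR-/- and WT M-MDSCs. With edgeR's quasi-likelihood test and Benjamini-Hochberg adjustment over all tested genes, 0 of 36 rose and 0 of 36 fell at an adjusted p under 0.05. Over all 12537 tested genes the same rule called 4.04%, of which 2.18% up and 1.87% down, and with a fold change of at least 2 it called 1.69%. At an unadjusted p under 0.05, the set held 1 gene above WT, Polr1b, and 1 below, Utp18, beside 21.2% of all tested genes (11.7% up and 9.52% down). DESeq2's Wald test and edgeR's exact test also called 0 of the 36, with the same count of 1 up and 1 down at an unadjusted p under 0.05. With mTOR-/- replicate 3 left out, edgeR again called 0 of the 36, with 2 up (Nop2 and Polr1b) and 0 down at an unadjusted p under 0.05. Without mTOR-/- replicate 2 it also called 0, with 0 up and 5 down by that unadjusted rule. Without mTOR-/- replicate 1 it called 0, with 4 up and 1 down. The direction of these unadjusted counts thus changed with the library left out. The lowest adjusted p in the set was 0.168.

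Log2 fold changes of the 36 genes ran from -0.32 for Utp18 to 0.44 for Polr1b, with a median of -0.03. The median over all tested genes was 0.00, and their 5th to 95th percentiles ran from -0.67 to 0.89. Of the 36 genes, 15 lay above 0 and 21 below. Without mTOR-/- replicate 3, 20 lay above 0 and the median was 0.02. The size of the change without regard to sign had a median of 0.13 on the log2 scale, against 0.22 over all tested genes. The 95% interval of the fold change lay within 2-fold in either direction for all 36 genes, which held for 71.4% of all tested genes. It lay within 1.5-fold for 33 of the 36, against 44.1% of all tested genes, and the exceptions were Nop56, Utp18 and Polr1b. Interval width and size of change depend on the count of a gene. The lowest count in the set was 133, while the filter for tested genes used a minimum count of 10. The median SE was 0.13 for the 36 genes and 0.17 over all tested genes. These comparisons were not matched for expression, so they do not set the 36 genes apart. Groups did not overlap for 5 of the 36 genes, namely Noc2l and Polr1b above WT and Imp4, Rrp9 and Polr1c below it. Over all tested genes 28.4% did not overlap, 14.5% above and 13.9% below.

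**Figure D1:**
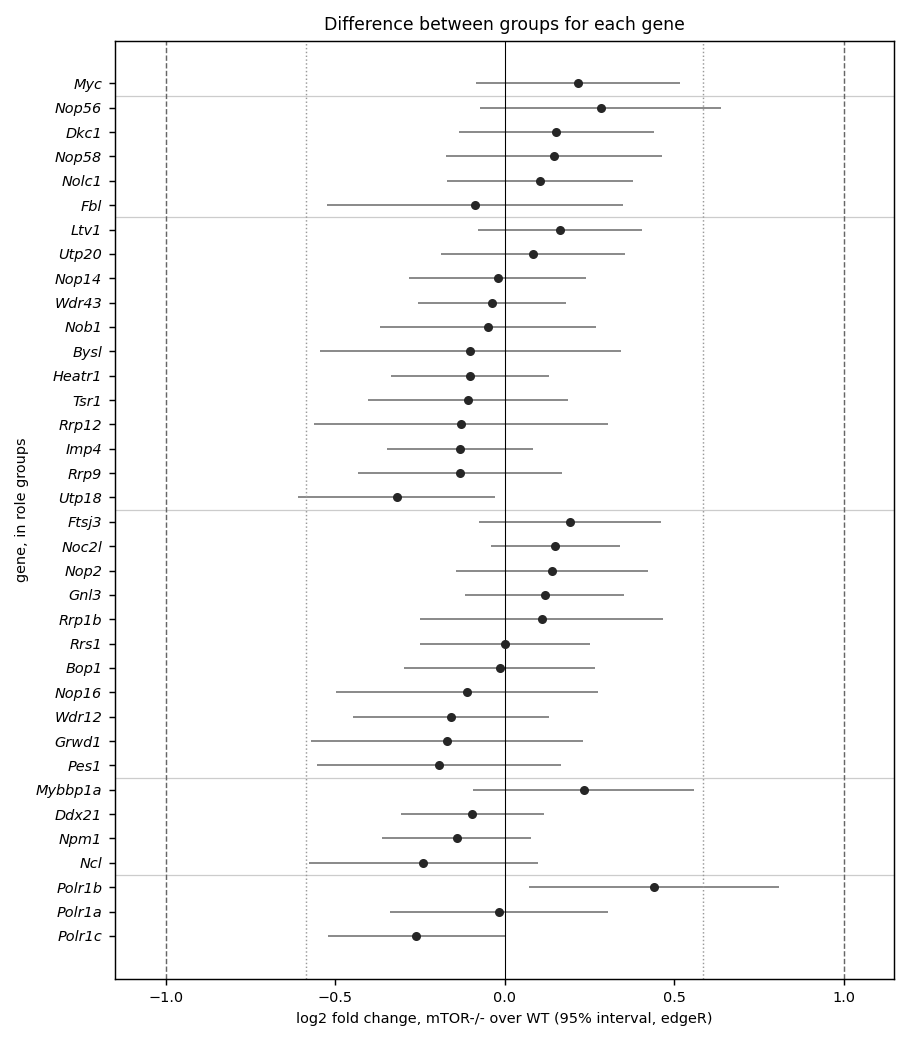
Log2 fold change of each of the 36 genes, mTOR-/- over WT, on the horizontal axis, with genes in rows grouped by role and separated by grey lines. Points are edgeR estimates, bars are 95% intervals, dotted lines mark 1.5-fold and dashed lines 2-fold. Every bar ends inside the 2-fold lines, and those of Polr1b and Utp18 do not reach 0.

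Promoter sequence was examined because Myc and Max bind the letters CACGTG, which read the same on both strands. A RefSeq promoter on GRCm38.p6, from 250 bases before to 50 after the start of transcription, was on hand for 30 of the 36 genes and not for Bop1, Fbl, Myc, Npm1, Rrp12 and Rrs1. CACGTG lay in the promoter of 10 of these 30 genes, which is 33.3%, beside 12.0% of the 9270 tested genes with a promoter in the same table and 8.1% of all 27025 genes there. The set was put together as ribosome biogenesis and Myc target genes, so a higher share is no separate finding about them. The median GC content was 58.8% in the promoters of the set and 52.7% in all promoters, and its part in that difference was not tested. The motif was downstream of the start in 7 of the 10 genes and upstream in 3. A match is a description of these letters and shows no binding. The windows of 30 bases below come from the 3 most highly expressed genes that hold the motif, by deposited FPKM, and from the genes at both ends of the fold changes among the 10, Mybbp1a and Utp18, which were added after their values were seen. Capitals mark CACGTG, and each sequence runs 5′ to 3′ on the strand of its gene.
Ltv1, chr10:13193092-13193121, reverse strand: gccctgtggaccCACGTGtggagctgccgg
Pes1, chr11:3963965-3963994, forward strand: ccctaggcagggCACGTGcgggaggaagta
Wdr43, chr17:71616220-71616249, forward strand: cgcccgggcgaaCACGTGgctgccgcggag
Mybbp1a, chr11:72441347-72441376, forward strand: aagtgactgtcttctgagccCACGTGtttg
Utp18, chr11:93885769-93885798, reverse strand: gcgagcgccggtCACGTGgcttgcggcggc
Counted from the start of transcription, the motif of Utp18 lay at position -20. In Pes1 the motif began 2 bases after the start, in Wdr43 17, in Ltv1 28 and in Mybbp1a 40 bases after it. The other holders were Nop2, Tsr1, Utp20, Imp4 and Grwd1. Log2 fold changes of the 10 genes with the motif ran from -0.32 to 0.23 with a median of -0.07. In the 20 genes with a promoter but no motif they ran from -0.26 to 0.44 with a median of -0.02, so the ranges of genes with and without the motif overlapped.

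Myc (chromosome 15, 61985341 to 61990374) was counted 1435, 2030 and 1571 times in mTOR-/- replicates 1, 2 and 3 and 1767, 1511 and 1546 times in the WT replicates. In CPM this was 131 ± 22.1 (SD, n = 3) in mTOR-/- and 113 ± 11.5 (SD, n = 3) in WT. Replicate 2 was the highest mTOR-/- library, at 157 CPM, and the other mTOR-/- libraries, at 117 and 120 CPM, lay inside the WT range of 103 to 126 CPM. The log2 fold change of Myc was 0.22 with a 95% interval from -0.08 to 0.52 (edgeR adjusted p = 0.388). It was 0.06 without mTOR-/- replicate 2 and 0.29 without mTOR-/- replicate 1 or WT replicate 1. Max, the partner with which Myc binds DNA, had a log2 fold change of 0.07 ± 0.11 (SE). None of the 12 tested genes of the Myc-Max-Mxd network, which holds Max and the competitors of Myc for it, passed edgeR's test in either direction (0 up and 1 down at an unadjusted p under 0.05), and their median log2 fold change was -0.10.

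The snoRNP proteins carry out the chemical modification of rRNA. In the set, 4 of the 5 had a log2 fold change above 0, none passed the test, and the median was 0.15. Leaving out mTOR-/- replicate 2 gave 3 of the 5 above 0 and a median of 0.03. Without mTOR-/- replicate 3, 5 of the 5 lay above 0 and the median was 0.17, and without WT replicate 2 or 3 the median was 0.08 or 0.09. Nop56 (chromosome 2, 130274430 to 130279313), a core protein of the box C/D snoRNPs, had 102, 133 and 150 CPM in mTOR-/- and 123, 98.7 and 94.2 CPM in WT. Its mTOR-/- replicate 1 lay below WT replicate 1, so the groups overlapped, and the log2 fold change was 0.28 with a 95% interval from -0.07 to 0.64 (edgeR adjusted p = 0.338). For Nop56 it was 0.15 without mTOR-/- replicate 3 and 0.42 without mTOR-/- replicate 1. Exons of Nop56 overlap snoRNA genes on its own strand and Idh3b on the opposite strand, so reads may be shared. Dkc1 (chromosome X, 75095854 to 75109777), the pseudouridine synthase of the H/ACA snoRNPs, had 69.5, 82.6 and 63.5 CPM in mTOR-/- and 68.8, 58.4 and 66.8 CPM in WT. The ranges of Dkc1 overlapped, and its log2 fold change was 0.15 with a 95% interval from -0.14 to 0.44 (edgeR adjusted p = 0.530). For Dkc1 it was 0.03 without mTOR-/- replicate 2, 0.08 without WT replicate 2 and 0.23 without mTOR-/- replicate 3. Fibrillarin (Fbl, chromosome 7, 28169748 to 28179269), the methyltransferase of the box C/D snoRNPs, had the largest SD of log2 CPM among the mTOR-/- libraries of the 36 genes, 0.42. It had 705, 1181 and 691 counts there and 1055, 941 and 1051 counts in WT. In CPM this was 67.2 ± 20.9 (SD, n = 3) in mTOR-/- and 71.4 ± 6.14 (SD, n = 3) in WT. After scaling, replicate 2 lay above every WT library at 91.2 CPM, and replicates 1 and 3 below every WT library at 57.5 and 52.9 CPM. The log2 fold change of Fbl was -0.09 with a 95% interval from -0.52 to 0.35 (edgeR adjusted p = 0.836), and it was -0.38 without mTOR-/- replicate 2 and 0.05 without mTOR-/- replicate 3. Nop58, the other box C/D core protein, had a log2 fold change of 0.15, and Nolc1, which accompanies snoRNPs in the nucleolus, of 0.10.

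The 12 factors of the small subunit lay mostly below WT by small amounts. Of these, 10 had a log2 fold change below 0 and 2 above, none passed the test, and the median was -0.10. Without mTOR-/- replicate 3, 8 of the 12 lay below 0 and the median was -0.06, and without WT replicate 1, 7 of the 12 lay below 0 and the median was -0.04. Without mTOR-/- replicate 2, 9 of the 12 lay below 0 and the median was -0.13. Utp18 (chromosome 11, 93859243 to 93885766), a subunit of the processome that assembles on nascent pre-rRNA, had 787, 920 and 709 counts in mTOR-/- and 1133, 1037 and 1192 counts in WT. After scaling this was 63.1 ± 8.44 CPM (SD, n = 3) in mTOR-/- and 78.8 ± 7.20 CPM (SD, n = 3) in WT. The highest mTOR-/- library, at 71.0 CPM, lay just above the lowest WT library, at 70.8 CPM. The log2 fold change of Utp18 was -0.32 with a 95% interval from -0.61 to -0.03, an unadjusted p of 0.0345 and an edgeR adjusted p of 0.199. Ltv1 (chromosome 10, 13178640 to 13193137), which acts in the export and late maturation of the small subunit, was the gene of this group furthest above WT. It had 82.6, 75.3 and 77.5 CPM in mTOR-/- and 77.5, 66.0 and 66.7 CPM in WT, a log2 fold change of 0.16 with a 95% interval from -0.08 to 0.41 (edgeR adjusted p = 0.420). WT replicate 1 lay among the mTOR-/- libraries of Ltv1.

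Among the other small subunit factors, Imp4, a protein of the U3 snoRNP, had 63.7, 64.2 and 65.7 CPM in mTOR-/- and 68.7, 72.5 and 70.9 CPM in WT. Rrp9, another U3 protein, had 26.4, 27.1 and 23.1 CPM in mTOR-/- and 27.4, 28.8 and 27.8 CPM in WT. Groups of both genes did not overlap, and both log2 fold changes were -0.13 (edgeR adjusted p of 0.460 for Imp4 and 0.608 for Rrp9). Rrp12 and Tsr1, which act on the late precursor, lay at -0.13 and -0.11 on the log2 fold change scale. Bysl and Heatr1 both lay at -0.10. Nob1, the nuclease that makes the final cut of the small subunit rRNA, lay at -0.05, Wdr43 at -0.04, Nop14 at -0.02 and Utp20 at 0.08.

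The 11 large subunit factors were divided, with 6 log2 fold changes above 0, 5 below and a median of 0.00, and none passed the test. Its median was 0.02 without mTOR-/- replicate 3, with 7 above 0 and 4 below, and turned to -0.02 without mTOR-/- replicate 2 and -0.05 without WT replicate 2. Pes1 (chromosome 11, 3963975 to 3980004), which forms the PeBoW complex with Bop1 and Wdr12, had 97.0, 118 and 71.9 CPM in mTOR-/- and 107, 108 and 113 CPM in WT. The mTOR-/- libraries of Pes1 lay on both sides of the WT libraries, and its log2 fold change was -0.19 with a 95% interval from -0.55 to 0.17 (edgeR adjusted p = 0.523). It was -0.38 without mTOR-/- replicate 2 and -0.03 without mTOR-/- replicate 3. The other PeBoW genes lay at -0.02 for Bop1 and -0.16 for Wdr12. Ftsj3 (chromosome 11, 106249142 to 106256079), an rRNA methyltransferase, had 79.1, 100 and 82.0 CPM in mTOR-/- and 71.6, 76.4 and 80.8 CPM in WT. Only WT replicate 3 lay above an mTOR-/- library for Ftsj3. The log2 fold change of Ftsj3 was 0.19 with a 95% interval from -0.08 to 0.46 (edgeR adjusted p = 0.390). It was 0.07 without mTOR-/- replicate 2 and 0.26 without mTOR-/- replicate 1. Noc2l had 217, 240 and 222 CPM in mTOR-/- and 206, 205 and 201 CPM in WT. Every mTOR-/- library of Noc2l lay above every WT library, with a log2 fold change of 0.15 (edgeR adjusted p = 0.347). Nop2, an rRNA methyltransferase, lay at 0.14, Gnl3, the nucleolar GTPase nucleostemin, at 0.12 and Rrp1b at 0.11. Rrs1 lay at 0.00, Nop16 at -0.11 and Grwd1, the least counted of the 36 genes, at -0.17.

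The 4 genes grouped as abundant nucleolar proteins or proteins associated with the rRNA genes summed to 1849 to 2367 CPM per library. The whole set summed to 4156 to 5002 CPM. Of these 4, Mybbp1a stood only at rank 13 of the 36 by FPKM. None passed the test, 3 of the 4 lay below 0 with and without mTOR-/- replicate 3, and the median log2 fold change was -0.12 with it, -0.08 without it and -0.18 without mTOR-/- replicate 2. Nucleolin (Ncl, chromosome 1, 86344719 to 86359400), which binds pre-rRNA, had 9005, 11811 and 7656 counts in mTOR-/- and 12600, 11983 and 12933 counts in WT. This was 734, 912 and 586 CPM in mTOR-/- and 896, 819 and 921 CPM in WT. Replicate 2 of mTOR-/- lay within the WT range of Ncl and replicates 1 and 3 below it. The log2 fold change of Ncl was -0.24 with a 95% interval from -0.58 to 0.10 (edgeR adjusted p = 0.395). It was -0.42 without mTOR-/- replicate 2 (edgeR adjusted p = 0.0969) and -0.10 without mTOR-/- replicate 3. Exons of Ncl overlap snoRNA genes on the same strand. Nucleophosmin (Npm1, chromosome 11, 33152287 to 33163206), a chaperone of ribosomal proteins, had 10286, 11369 and 9804 counts in mTOR-/- and 13141, 12671 and 12922 counts in WT. In CPM it was 822 ± 65.4 (SD, n = 3) in mTOR-/- and 907 ± 36.2 (SD, n = 3) in WT. The highest mTOR-/- library of Npm1, at 878 CPM, lay above the lowest WT library, at 866 CPM. The log2 fold change of Npm1 was -0.14 with a 95% interval from -0.36 to 0.08 (edgeR adjusted p = 0.440). It was -0.09 without mTOR-/- replicate 3 and -0.20 without mTOR-/- replicate 2. Npm1 has processed pseudogenes, which can take some of its reads. Mybbp1a (chromosome 11, 72441355 to 72451768), a nucleolar protein that binds Myb, had 187, 282 and 251 CPM in mTOR-/- and 221, 201 and 190 CPM in WT. Replicates 2 and 3 of mTOR-/- lay above the WT libraries of Mybbp1a and replicate 1 below them, with a log2 fold change of 0.23 and a 95% interval from -0.09 to 0.56 (edgeR adjusted p = 0.389). It was 0.09 without mTOR-/- replicate 2 and 0.38 without mTOR-/- replicate 1. Ddx21, an RNA helicase of the nucleolus, lay at -0.09.

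RNA polymerase I held both the gene furthest above WT and one of those furthest below. Polr1b (chromosome 2, 129100995 to 129126594), which encodes the second largest subunit, had 367, 587 and 507 counts in mTOR-/- and 387, 417 and 393 counts in WT. After scaling this was 29.9, 45.3 and 38.8 CPM in mTOR-/- and 27.5, 28.5 and 28.0 CPM in WT. Every mTOR-/- library lay above every WT library, although replicate 1 did so by only a little. The log2 fold change of Polr1b was 0.44 with a 95% interval from 0.07 to 0.81, an unadjusted p of 0.0241 and an edgeR adjusted p of 0.168. It was 0.28 without mTOR-/- replicate 2, with an unadjusted p of 0.103 from the same edgeR test. Without mTOR-/- replicate 1 it was 0.58, with an unadjusted p of 0.00339 and an adjusted p of 0.0841 from that edgeR test. Polr1c (chromosome 17, 46243920 to 46248054), a subunit shared with RNA polymerase III, had 578, 510 and 561 counts in mTOR-/- and 716, 775 and 718 counts in WT. In CPM it was 47.1, 39.4 and 42.9 in mTOR-/- and 50.9, 52.9 and 51.1 in WT, so that every mTOR-/- library lay below every WT library. The log2 fold change of Polr1c was -0.26 with a 95% interval from -0.52 to 0.00 (edgeR adjusted p = 0.236). Polr1a, the catalytic subunit, had a log2 fold change of -0.02, and the groups overlapped. The subunits of 1 enzyme thus lay on both sides of 0, and none passed the test. With all libraries 1 of the 3 lay above 0 and the median was -0.02, and without mTOR-/- replicate 3, 2 of the 3 lay above 0 and the median was 0.05. The median was -0.18 without mTOR-/- replicate 2.

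**Figure D2:**
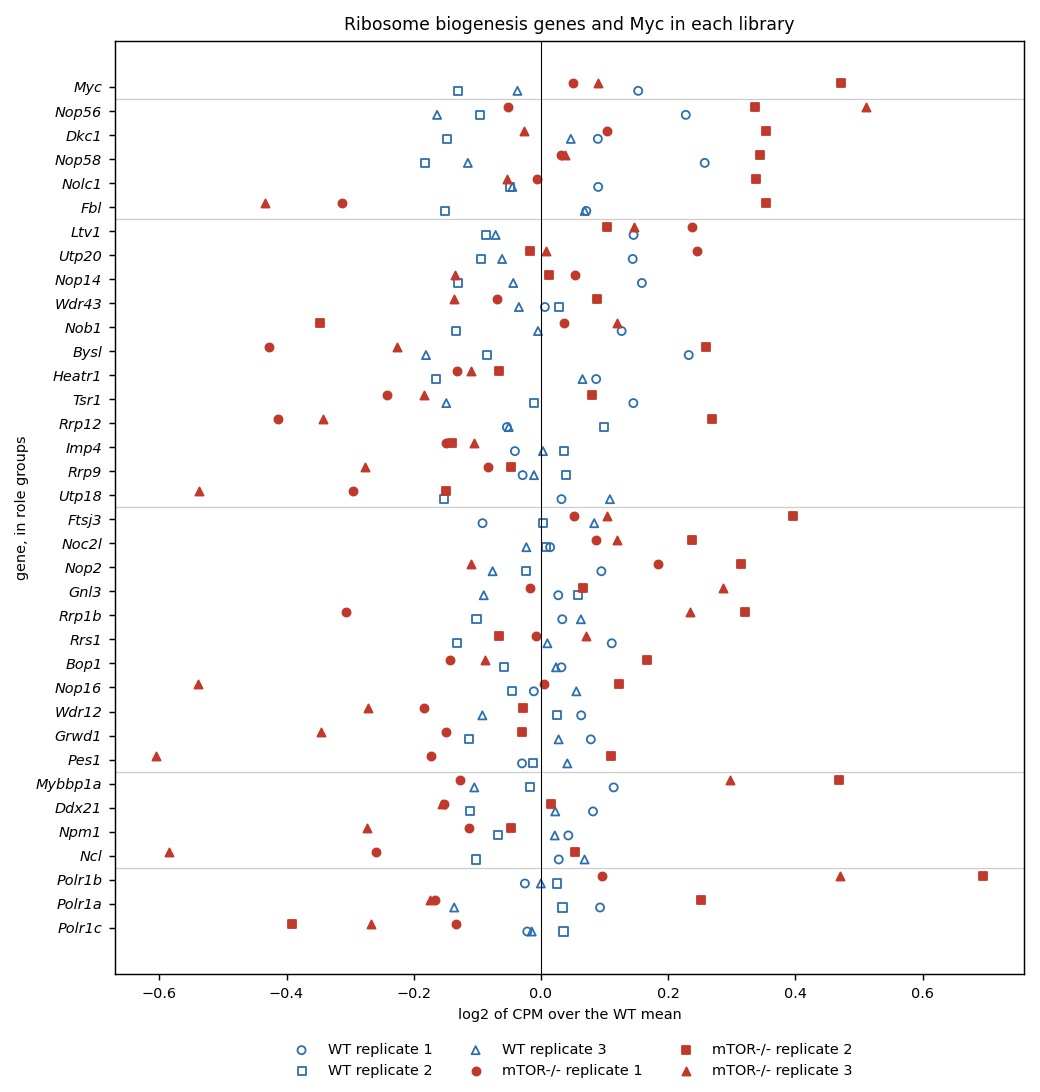
CPM of each gene in each library as the log2 ratio to the mean of the WT libraries, with genes in rows grouped by role. Filled red symbols are mTOR-/- and open blue symbols WT libraries, with a shape for each replicate. The mTOR-/- symbols are spread more widely than the WT symbols, and the squares of mTOR-/- replicate 2 sit to the right for many genes, 45.3 CPM for Polr1b and 91.2 CPM for Fbl among them.

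The libraries of a group differed in how they carried these genes. Library mTOR-/- replicate 2 had the highest CPM of all 6 libraries for 18 of the 36 genes, and mTOR-/- replicate 3 the lowest for 15. Within the mTOR-/- group, replicate 2 was the highest for 27 of the 36 genes, against 31.7% of all tested genes. Replicate 3 was the lowest of that group for 16 genes and replicate 1 for 15, against 37.5% and 28.9% of all tested genes. Among WT libraries, replicate 1 was the highest for 23 of the 36 genes, against 33.6% of all tested genes. The genes share a library, so these counts are not independent between genes. The 36 genes took 0.428%, 0.504% and 0.421% of all counts in mTOR-/- replicates 1, 2 and 3 and 0.482%, 0.437% and 0.456% in the WT replicates, so the ranges of the groups overlapped. The SD of log2 CPM within the group had a median over the 36 genes of 0.18 in mTOR-/- and 0.09 in WT, and it was larger in mTOR-/- for 29 of the 36 genes, which is 80.6%. Over all tested genes the medians were 0.22 and 0.15, and the SD was larger in mTOR-/- for 67.7%. Leaving out mTOR-/- replicate 2 moved the median log2 fold change of the 36 genes to -0.12, and leaving out mTOR-/- replicate 3 moved it to 0.02.

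**Figure D3:**
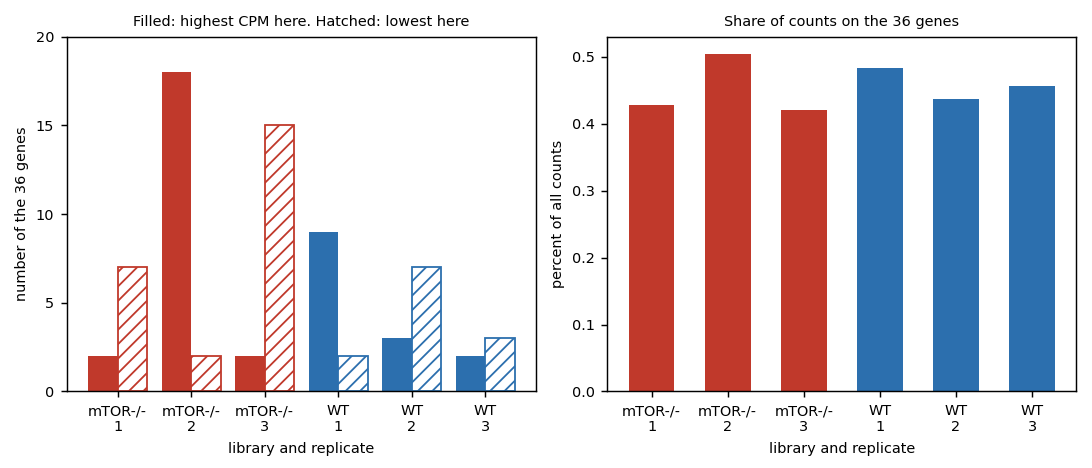
Left, the number of the 36 genes for which a library had the highest (filled) or the lowest (hatched) CPM of the 6 libraries. Right, the percent of all counts in a library that fell on the 36 genes; mTOR-/- libraries are red and WT libraries blue. The filled bar of mTOR-/- replicate 2 reaches 18 and the hatched bar of mTOR-/- replicate 3 reaches 15, while the shares lie between 0.421% and 0.504%.

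Levels were compared between genes only per length, over all 6 libraries. By deposited FPKM, which divides reads by gene length and by library size, Npm1 stood first at 215 ± 15.3 (SD, n = 6), followed by Gnl3 at 80.3 ± 8.08 and Ncl at 66.8 ± 10.6 FPKM. Fbl, Ddx21 and Noc2l followed at 59.7, 59.7 and 57.0 FPKM, closer to each other than their spread over libraries. Wdr12 stood last at 2.40 ± 0.20 FPKM. The median of the tested genes was at 5.64 FPKM, and 32 of the 36 genes stood above it. The gene length behind the deposited FPKM was recovered from count and FPKM, and for Myc it was 9933 bases, longer than the 5034 bases the gene spans in the table. Coding length was therefore used as an alternative chosen after seeing the data. Per kilobase of the coding sequence of the principal GENCODE transcript, Npm1 stood at 987 ± 75.6 CPM (SD, n = 6), Ncl at 382 ± 61.9 CPM and Ddx21 at 111 ± 7.86 CPM. Myc moved from rank 21 by FPKM, at 12.3, to rank 6 per kilobase of coding length, at 89.7 ± 13.7 CPM. Noc2l, Gnl3, Myc and Nop58 stood between 87.4 and 95.6 CPM per kilobase, and these neighbours did not differ by more than their spread over libraries. Reads on untranslated parts are in the counts but not in the coding length, so genes with long untranslated ends stand too high on this scale. The 3 RNA polymerase I genes differed among themselves, with Polr1c at 45.7 CPM per kilobase, Polr1a at 11.1 and Polr1b at 9.69. Rrp12 stood last at 7.20 CPM per kilobase.

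**Figure D4:**
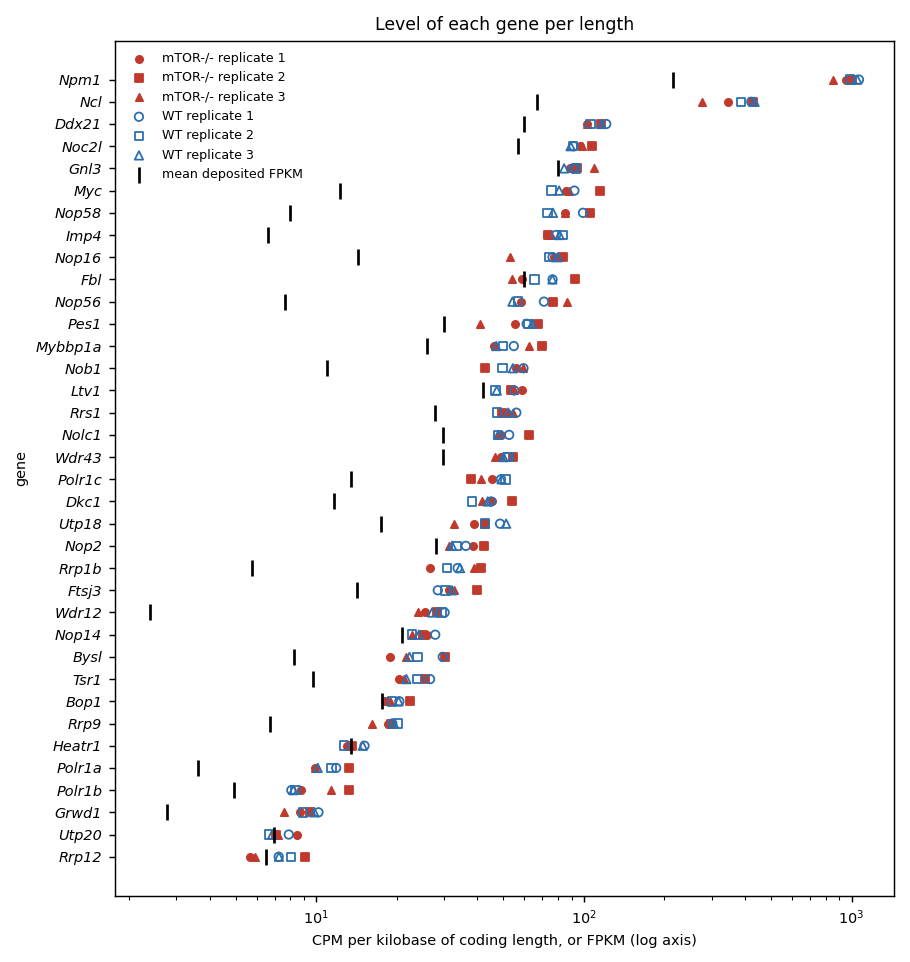
Level of each gene in each library as CPM per kilobase of coding length on a log axis, with a black bar at the mean deposited FPKM. Filled red symbols are mTOR-/- and open blue symbols WT libraries; the 6 symbols of a gene lie close together while genes range from 7.20 for Rrp12 to 987 for Npm1.

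Further genes of the same pathways were counted in the same fit. Of 32 other small subunit factors, edgeR called 0 in either direction, with 2 up and 1 down at an unadjusted p under 0.05 and a median log2 fold change of -0.04. DESeq2 and the exact test each called 1 of them down, Imp3. Of 39 other large subunit factors, edgeR called 0, with 6 up and 2 down at an unadjusted p under 0.05 and a median of 0.02. DESeq2 called 2 of these up, Nvl and Rbm28, and 1 down, Gltscr2, and the exact test called 1 up, Nvl. For 13 other snoRNP proteins and assembly factors the median was -0.05, and for 12 other RNA polymerase I subunits and factors it was -0.03. Each of these lists had 1 gene up and 1 down at an unadjusted p under 0.05 and 0 calls by edgeR, DESeq2 or the exact test. No call was made by the 3 tools among 22 RNA polymerase III genes (2 up and 1 down at an unadjusted p under 0.05), 13 nuclear exosome genes (1 up and 0 down) or 7 tested snoRNA host genes (0 up and 2 down). Their medians were -0.0046, -0.0030 and -0.18. Rrn3, the polymerase I factor through which mTOR is known to act, had 41.5, 53.2 and 33.9 CPM in mTOR-/- and 52.5, 49.9 and 45.9 CPM in WT, with a log2 fold change of -0.21 and a 95% interval from -0.58 to 0.17. Ubtf, which holds rDNA open, had a log2 fold change of -0.10 with a 95% interval from -0.33 to 0.14. No list was compared with other genes by a test.

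Among 25 Myc targets outside ribosome biogenesis, 1 rose and 1 fell in edgeR's test, 17 of 25 lay below 0, and the median log2 fold change was -0.09. At an unadjusted p under 0.05 the list held 1 up and 5 down, and DESeq2 and the exact test each called 1 up and 2 down, Ldha in addition. Bcat1, an enzyme of branched-chain amino acid breakdown, rose from 18.5, 14.0 and 17.1 CPM in WT to 29.2, 42.8 and 29.4 CPM in mTOR-/- (log2 fold change 1.03 ± 0.19 SE, edgeR adjusted p = 0.0218). Nme1, a nucleoside diphosphate kinase, fell from 47.9, 49.8 and 56.5 CPM to 32.5, 37.6 and 31.4 CPM (log2 fold change -0.60 ± 0.13 SE, edgeR adjusted p = 0.0359). Nme2 is a close paralog and may share reads with Nme1, so the split is uncertain. The Bcat1 call was lost when any 1 of the 3 WT libraries was left out (adjusted p 0.0664 to 0.0917), and the Nme1 call in all leave-one-out fits except that without mTOR-/- replicate 2 (adjusted p of the others 0.0605 to 0.177). Of 17 proliferation genes, 16 lay below 0, 1 fell, Cdk1, and the median was -0.19. At an unadjusted p under 0.05 the list held 0 up and 4 down, and DESeq2 and the exact test each called 2 down, Cdk1 and Top2a. Cdk1, the kinase that drives mitosis, had 31.5, 29.6 and 27.7 CPM in mTOR-/- and 54.0, 40.9 and 51.6 CPM in WT (log2 fold change -0.72 ± 0.14 SE, edgeR adjusted p = 0.0259). The Cdk1 call was kept without WT replicate 2 and without mTOR-/- replicate 3, and lost without each other library, at an adjusted p of up to 0.132. Summed CPM of the proliferation genes lay between 1123 and 1246 in mTOR-/- and between 1189 and 1572 in WT, and the part of cell division in the values of the 36 genes was not tested.

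The gene annotation deposited by the authors places 25 of the 36 genes under the GO term ribosome biogenesis, 21 under rRNA processing and 35 under nucleolus. Without the 36, ribosome biogenesis held 195 tested genes, of which 0 rose and 5 fell, with a median log2 fold change of -0.10. At an unadjusted p under 0.05 in edgeR's test it held 9 up and 27 down, and 119 of the 195 lay below 0. The same rules gave 2.18% up and 1.87% down over all tested genes, and unadjusted 11.7% up and 9.52% down. The 5 that fell were the ribosomal protein genes Rplp0, Rpl3, Rpl14 and Rpl38 and the gene model Gm10036. Rpl3 had 182, 212 and 189 CPM in mTOR-/- and 336, 315 and 313 CPM in WT, a log2 fold change of -0.72 ± 0.09 SE (edgeR adjusted p = 0.00367). The Rpl3 call was kept in every leave-one-out fit, at an adjusted p of at most 0.0258, and each of the other 4 calls was lost in at least 4 of the 6 such fits, at an adjusted p of up to 0.196. Ribosomal protein genes have many processed copies, so counts of single genes are uncertain. The term rRNA processing without the 36 held 126 tested genes, of which 0 rose and 1 fell, Rpl14, with a median of -0.07. Unadjusted, it held 6 up and 15 down. The term nucleolus without the 36 held 695 tested genes, of which 5 rose and 11 fell, with a median of -0.02 and, unadjusted, 65 up and 69 down.

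**Figure D5:**
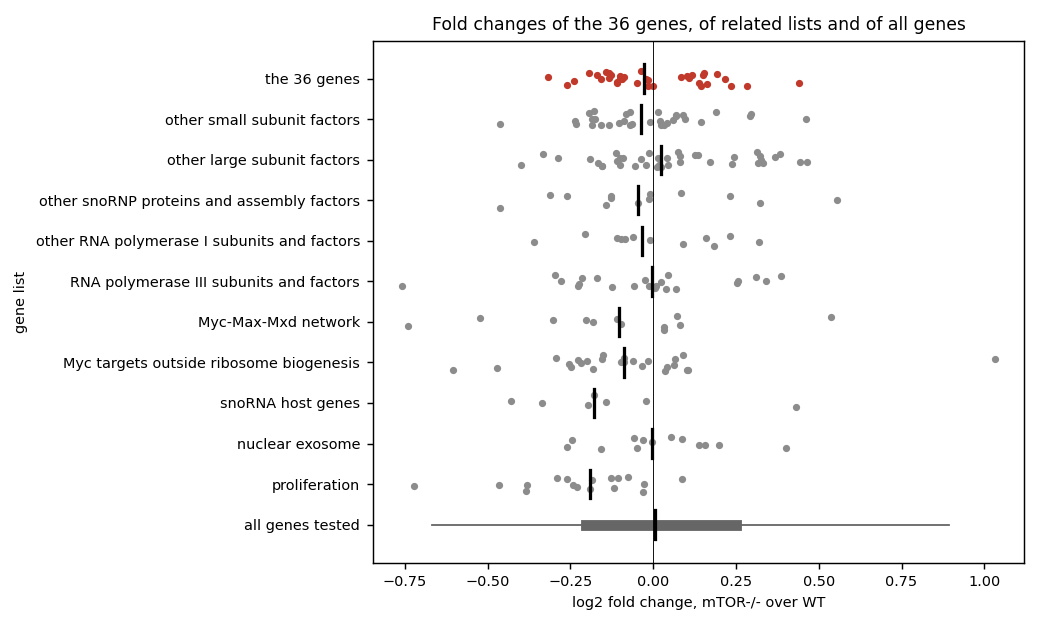
Log2 fold changes, mTOR-/- over WT, of the 36 genes (red), of related gene lists and of the proliferation genes (grey), each gene a point and each median a black line. The last row gives the median, the quartiles (thick bar) and the 5th to 95th percentiles (thin line) of all tested genes. The 36 genes lie between -0.32 and 0.44, inside the thin line, which runs from -0.67 to 0.89.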

How the data were processed

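RNA of 3 mTOR-/- and 3 WT M-MDSC libraries was analysed from 1 deposited table. The authors deposited whole-number read counts per gene without normalization and FPKM values per library. The methods name Bowtie2 on mm10 and HTSeq, while the submitters' processing notes name HISAT2 2.0.4, StringTie 1.3.0, GRCm38.p4 and mm9; which of them made the files, the annotation and the strand setting were not settled, and exons of 20 of the 36 genes overlap another annotated gene. Positions are those of the table, and 24 of the 36 genes have the same start and end in GENCODE M21 on GRCm38. The authors also deposited their own comparison (group means of FPKM, log2 fold changes, p-values and q-values), which was not used, and GO terms per gene, which were. A further 24 columns of per-sample values repeat these and were not used. The gene length implied by count and FPKM varied by under 1% between libraries for all 12677 genes counted in every library. That length is longer than the gene for 3 of the 36, and this affects comparisons between genes but not between libraries.

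Counts were analysed with R 4.3.3 and edgeR 4.0.16: filterByExpr (minimum count 10, minimum total 15), TMM factors (0.986 to 1.01), the quasi-likelihood F test without covariates, and Benjamini-Hochberg adjustment over the 12537 tested genes. CPM were scaled with the TMM factors, and fold changes are mTOR-/- over WT. The biological coefficient of variation was 19.0%. A count of 3, taken as the floor, was 0.203 to 0.244 CPM and covers counting error only. No 2 libraries held identical values. The method was also run on counts simulated with the spread of these libraries and with genes independent of each other. That run does not cover shifts shared by the genes of a library, and no result here rests on it. An exact permutation test of 3 against 3 libraries cannot go below p = 0.1 and was not used.

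The 36 genes and all lists were chosen with earlier results of these data known. Per-library values and full statistics were given for Myc, Ncl, Npm1, Fbl, genes that passed the test, and the 2 genes of each role group with the largest absolute log2 fold change; genes of related lists were named where they passed the test, and Max, Rrn3, Ubtf and the non-overlapping genes besides. Imp4, Rrp9, Noc2l and Rpl3 were given values after these were seen. Alternatives were DESeq2 1.42.0, edgeR's exact test, RLE, upper-quartile and no scaling factors, no filter, 10 counts in every library, limma 3.58.1 on log2(FPKM + 1) and log2(FPKM + 0.1) with a mean FPKM of at least 0.5 or no filter, a fold change of at least 2, the replicate number as a block, and each library left out in turn.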

Additional observations from a re-analysis of the deposited data

How the results depend on the processing

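Under all 18 alternatives 0 of the 36 genes passed the test in either direction. The lowest adjusted p was 0.0841 for Polr1b without mTOR-/- replicate 1 and 0.0969 for Ncl without mTOR-/- replicate 2. The median log2 fold change of the 36 genes ranged from -0.12 to 0.02 over the alternatives, both ends from leaving out a library, and with other scaling 14 to 17 of the 36 genes lay above 0; the genes that changed sign with scaling were Bop1, Polr1a and Rrs1. Of the 13 genes with full statistics, Fbl changed sign, to 0.011 without mTOR-/- replicate 1 and to 0.054 without mTOR-/- replicate 3, with -0.38 as the lowest leave-one-out value. The cause was not tested.

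Over all genes 273 rose and 234 fell. DESeq2 called 591 up and 480 down, edgeR's exact test 586 up and 415 down, limma on log2(FPKM + 1) without a filter 112 up and 121 down, and the rule with a fold change of at least 2, a stricter rule, 130 up and 82 down. Leaving out 1 library gave 84 to 291 up and 84 to 235 down. The labels do not say whether the replicate numbers pair the libraries. Deviations from the group means of same-numbered libraries correlated at -0.08, -0.03 and -0.06. No pairing was seen in these values, but 3 libraries per group cannot exclude it. With the replicate number as a block 153 genes were called up and 126 down, and 0 of the 36; the calls of Bcat1, Nme1 and Cdk1 were lost in this fit (adjusted p 0.0536, 0.0867 and 0.0557), as they were with limma on log2(FPKM + 1) without a filter (adjusted p 0.116, 0.0696 and 0.0796). At this depth and with 3 libraries per group, 95% intervals of the 36 genes lay within 2-fold, so smaller differences remain possible.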

Other observations

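Of the 36 genes, 6 hold snoRNA genes that no annotated exon of the host overlaps, 11 such genes in all in GENCODE M21. The 6 hosts were Nop56, Nop58, Dkc1, Wdr43, Tsr1 and Ncl. SnoRNA genes overlapped by an exon of any host transcript were left out of this count, such as Snord19 and Snord69 in Gnl3. It is therefore no full list of snoRNA hosts. The 6 hosts counted had log2 fold changes of 0.28, 0.15, 0.15, -0.04, -0.11 and -0.24, and none passed the test in edgeR. Among the 7 tested noncoding snoRNA host genes the median log2 fold change was -0.18, and none passed.

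The gene length behind the deposited FPKM was longer than the coding length for all 36 genes, by 1.02 times for Heatr1 and by 11.7 times for Imp4, and by more than 2 times for 20 of them. Over tested genes counted in every library, 9.02% had such a length above the span of the gene.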
